A study of Mus musculus with 4 samples.

Results

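Imprinted genes were measured in mouse neurons made from embryonic stem (ES) cells. The genes were taken by symbol from a list of 36 mouse imprinted genes, under a rule with no threshold on measured values, and 29 of them were among the 34968 symbols shared by the 4 libraries. The other 7 were the noncoding genes H19, Meg3, Rian, Mirg, Kcnq1ot1, Airn and Peg13, which did not meet that rule and were not analysed here. Of the shared symbols, 20962 were protein-coding and 239 were long noncoding RNAs in RefSeq, so the 29 genes describe the coding side of the imprinted loci.

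Both lines came from 1 parental ES cell line, labelled Dlx6-Cre; Ai9 and of strain C57/BL6, in which Cre driven by Dlx6 switches on tdTomato in differentiated neurons. The N/D line carries Nestin-driven Nkx2-1 with a transactivator that induces Dlx2, and the N/D/S line carries the same with St18 added to the Dlx2 construct. Transfected colonies were selected clonally, so a difference between the lines can also be a difference between clones, and these cannot be told apart here. Embryoid bodies of both lines received XAV-939 and a Sonic hedgehog agonist (SAG), tdTomato+ neurons were sorted on day 12, and each line gave 2 libraries, numbered replicate 1 and replicate 2.

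An imprinted gene is transcribed mainly from the allele inherited from 1 parent, because DNA methylation laid down in the egg or sperm at an imprinting control region marks the alleles differently. Imprinted genes lie in clusters that share such a region, and many are known for roles in fetal growth and in the brain. In cultured ES cells methylation at control regions can be gained or lost, so that the dosage of a cluster can vary between lines and clones. The values here are totals over both alleles and do not show which allele was used.

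The values are TPM, a length-corrected share of the transcripts of a library. TPM keep no read counts, so depth is unknown, and an exact 0 is given only as "listed at 0". In bulk RNA, fewer cells of a type and less RNA per cell cannot be told apart. The library labelled N/D replicate 1 stood apart: of 6139 genes that reached 10 TPM everywhere else, 613 were listed at 0 there, against 0 to 2 genes by the same count for any other library. St18 did not separate the lines as labelled, with levels of 28.5 and 26.6 TPM for N/D against 44.4 and 15.9 TPM for N/D/S, in replicate order. Directions below therefore rest on the labels. Summed TPM of 6 marker lists (pan-neuronal, GABAergic forebrain, neural progenitor, pluripotent, mesoderm and endoderm, glia) overlapped between the lines for each list. The pan-neuronal list summed to between 3264 and 5044 TPM, and each of its 7 genes was above 0 in each library.

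The promoters of genes that share a start region, or that carry the results below, are shown first. Sequences are from RefSeq on GRCm38.p6, the build named in the submitters' processing notes as GRCm38. Each covers up to 250 bases before the RefSeq start of the named gene, less any bases that GENCODE M21 puts in Peg3, Usp29, Snurf, Nnat, Dlk1 or Dio3 itself. Capitals mark CpG, the dinucleotide whose methylation carries the imprint at control regions. The windows were chosen by gene start and not as control regions. Peg3 and Usp29 are transcribed away from each other, and the bases between their starts are given on the plus strand (chr7:6730432-6730577).

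Peg3 and Usp29: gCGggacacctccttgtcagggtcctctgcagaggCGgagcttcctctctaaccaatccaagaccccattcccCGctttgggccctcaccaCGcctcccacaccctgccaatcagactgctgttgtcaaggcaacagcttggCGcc

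Snurf and Snrpn begin at the same RefSeq start, and 1 window serves both (chr7:60005200-60005449, minus strand). GENCODE also begins Snrpn far upstream of this start, so the window lies inside the Snrpn gene as GENCODE draws it.

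Snurf and Snrpn: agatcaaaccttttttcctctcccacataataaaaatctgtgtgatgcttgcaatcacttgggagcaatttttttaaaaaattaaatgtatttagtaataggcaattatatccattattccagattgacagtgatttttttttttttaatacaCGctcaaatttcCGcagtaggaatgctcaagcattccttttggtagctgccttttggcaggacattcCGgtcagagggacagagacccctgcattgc

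Nnat is shown as the most abundant imprinted gene (chr2:157559828-157560077, plus strand), and Dlk1 (chr12:109452573-109452822, plus strand) and Dio3 (chr12:110278980-110279067, plus strand) as the genes at the ends of their cluster.

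Nnat: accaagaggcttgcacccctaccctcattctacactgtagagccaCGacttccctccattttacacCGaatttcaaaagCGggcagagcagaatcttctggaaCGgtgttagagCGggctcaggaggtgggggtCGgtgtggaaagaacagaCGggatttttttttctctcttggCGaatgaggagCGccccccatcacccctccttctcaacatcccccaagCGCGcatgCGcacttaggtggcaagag
Dlk1: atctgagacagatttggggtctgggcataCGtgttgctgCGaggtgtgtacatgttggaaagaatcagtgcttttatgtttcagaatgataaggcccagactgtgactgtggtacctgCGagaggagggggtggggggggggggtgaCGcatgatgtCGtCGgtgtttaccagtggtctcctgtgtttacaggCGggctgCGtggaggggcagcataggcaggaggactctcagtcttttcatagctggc
Dio3: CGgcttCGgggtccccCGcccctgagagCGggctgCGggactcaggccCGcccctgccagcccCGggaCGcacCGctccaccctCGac

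The Dio3 window, which ends at the GENCODE start upstream of the RefSeq start, held 10 CpG in 88 bases. The median was 2 over the 88 bases directly before each RefSeq start in the promoter table. The compared stretches thus lie at different distances from the start. The Nnat window held 12 and the Dlk1 window 8 in 250 bases, against a median of 6. The Snurf and Snrpn window held 3. The hexamer TGCCGC, the core bound by the imprint-protecting factor Zfp57, was searched on both strands over 250 bases upstream, and 4 of the 24 measured imprinted genes with a window held it (Mest, Nap1l5, Zim1 and Plagl1). It occurred in 8.68% of all windows and, counted by symbol, in 9.84% of all genes with a window. None of the 5 windows printed above held it. Such a match is a description of the letters and not a binding site.

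The 29 genes spanned the whole range of expression. Together they made up 1.62% to 2.199% of the TPM of a library. A level of 147.9 TPM or more in all 4 libraries was found for 7 genes, Nnat, Ndn, Gnas, Snrpn, Cdkn1c, Snurf and Nap1l5, and at least 10 TPM in every library by 12. Another 6 genes, Zim1, Rtl1, Dio3, Phlda2, Ascl2 and Slc22a18, stayed below 10 TPM in each library.

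Nnat, which encodes neuronatin, a small membrane protein of the endoplasmic reticulum in developing neurons, had 11906 and 15596 TPM in N/D and 10911 and 16551 TPM in N/D/S. It ranked first of all symbols in both replicate 2 libraries and ranked 2 in both replicate 1 libraries. Between 66.1% and 81.0% of the summed TPM of the 29 genes came from Nnat. The highest library was 1.52 times the lowest, the narrowest range of the 29 genes that were listed above 0 throughout.

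**Figure D1:**
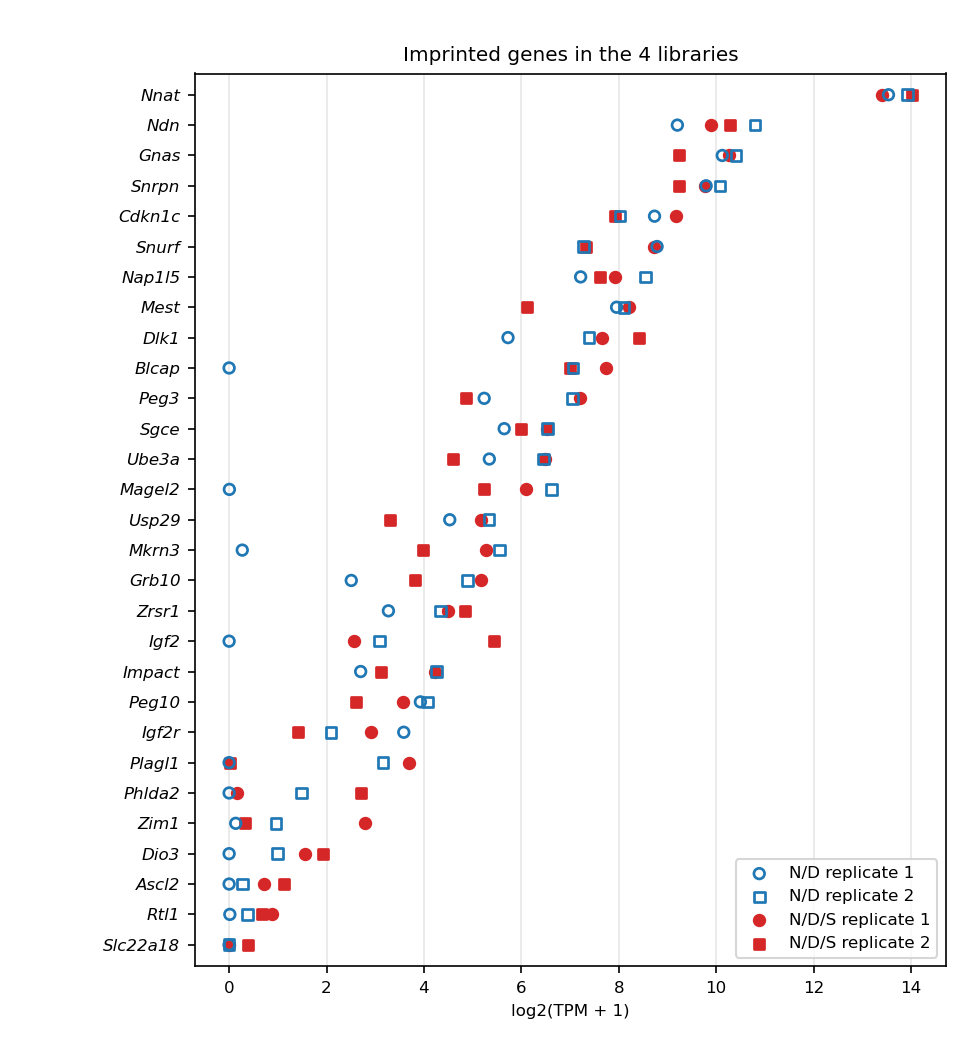
Levels of the 29 imprinted genes as log2(TPM + 1), one row per gene sorted by mean TPM, with open blue symbols for N/D, filled red symbols for N/D/S, circles for replicate 1 and squares for replicate 2. Nnat lies far above the rest, and in N/D replicate 1 Blcap and Igf2 lie at 0 while Magel2 and Mkrn3 lie near 0 (0.0035 and 0.21 TPM).

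Whether the lines differed was tested with limma on log2(TPM + 1) over 12975 genes, those that reached 1 TPM in 2 or more libraries, and p was adjusted by Benjamini-Hochberg over all of them. Of the 29 imprinted genes, 25 entered this test, and Zim1, Rtl1, Ascl2 and Slc22a18 were too low. Among the 25, 0 passed an adjusted p of 0.05 in limma, as did 0% of all genes tested. The lowest unadjusted limma p among them was 0.113, so 0 of the 25 were under 0.05, against 8 of all 12975. The adjusted p of each of the 25 was 1.00 by limma. Standard errors of the log2 fold changes ran from 0.97 to 2.12, so that a 2-fold difference was not detectable with these libraries. For a single gene, the smallest two-sided p that an exact permutation test of 2 against 2 libraries can give is 0.33.

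The fitted log2 fold change, N/D/S minus N/D, was above 0 for 14 of the 25 imprinted genes and below 0 for 11. It was above 0 for 61.4% of all genes tested. The median was 0.17 over the imprinted genes and 0.26 over all genes tested, and with upper quartile scaling these were −0.04 and 0.14. With the library N/D replicate 1 left out, the medians were −0.57 and −0.29. The median of the imprinted genes was also below 0 with replicate 1 of N/D/S left out, at −0.26, and was −0.063 over the 18 imprinted genes that reached 1 TPM in all 4 libraries, so its sign depended on single libraries and on the filter.

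**Figure D2:**
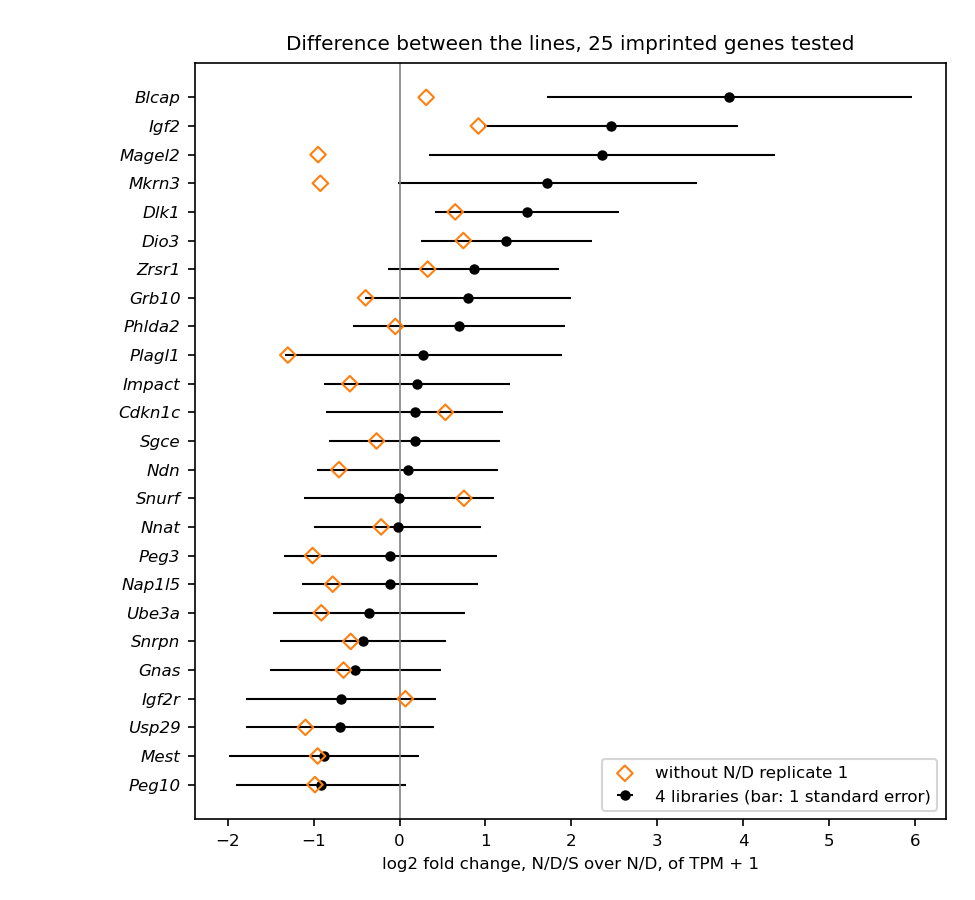
Log2 fold change (N/D/S minus N/D) for the 25 imprinted genes tested, on the log2(TPM + 1) scale, with black points and bars of 1 standard error for the fit on 4 libraries and open diamonds for the fit without N/D replicate 1. Dlk1, Dio3 and Zrsr1, whose lines do not overlap, lie above 0 in both fits by necessity (1.48, 1.24 and 0.86 with all libraries). Magel2 moves from 2.36 to −0.95.

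The cluster on distal chromosome 12 between Dlk1 and Dio3 holds 3 protein-coding genes expressed from the paternal allele, and in each of them both N/D/S libraries were above both N/D libraries. Among the genes tested, this order was found for 3 of the 25 imprinted genes (Dlk1, Dio3 and Zrsr1) and for 8.69% of all genes. The share of the imprinted genes is thus near the share of all genes. Dio3 passed the filter on low values only through the N/D/S libraries, so its place in this count says nothing about the lines.

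Dlk1, a membrane protein related to the Notch ligand Delta, had 51.9 and 166.3 TPM in N/D and 200.7 and 339.6 TPM in N/D/S, in replicate order. The groups did not overlap, but the closest libraries, replicate 2 of N/D and replicate 1 of N/D/S, differed by only 1.21 times. The log2 fold change was 1.48 (standard error 1.07, unadjusted p = 0.21 by limma), and N/D/S was higher within both replicate numbers. Without N/D replicate 1 it was 0.65.

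Dio3, the deiodinase that inactivates thyroid hormone, was listed at 0 in N/D replicate 1 and had 0.997 TPM in N/D replicate 2, against 1.94 and 2.79 TPM in N/D/S. The groups did not overlap, but both N/D libraries were below the 1 TPM of the filter and both N/D/S libraries above it. Its log2 fold change, 1.24 (standard error 0.99) and 0.74 without N/D replicate 1, is therefore a description only. Rtl1, a gene derived from a retrotransposon and needed in the placenta and in muscle, had 0.010 and 0.30 TPM in N/D and 0.83 and 0.60 TPM in N/D/S. Rtl1 shared the order of the libraries but was below 1 TPM in each and was not tested. With Rtl1 and Ascl2, which was also too low, 5 of the 29 genes had this order, against 7.51% of all genes without a filter on low values.

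**Figure D3:**
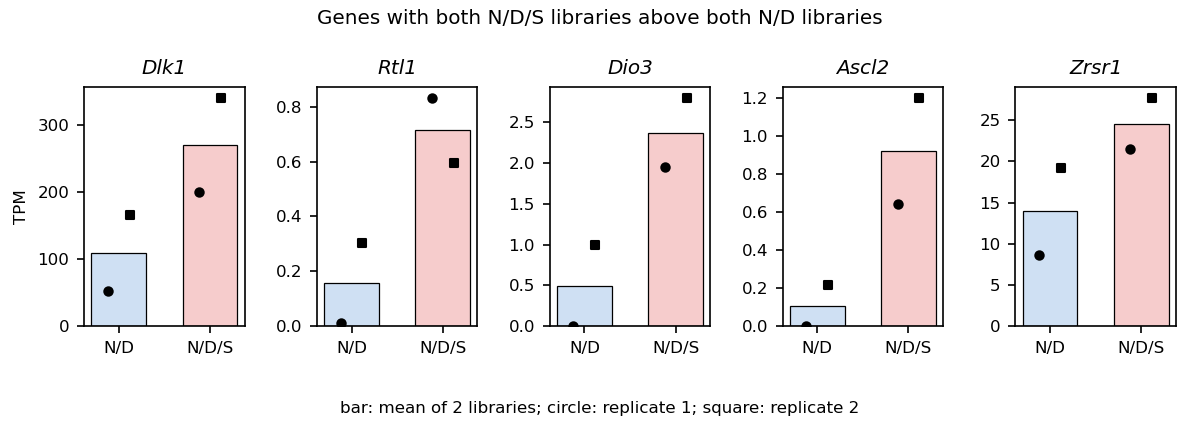
TPM of the 5 imprinted genes with both N/D/S libraries above both N/D libraries, each on its own linear axis from 0, with bars for the mean of 2 libraries, circles for replicate 1 and squares for replicate 2. Dlk1 has 51.9 and 166.3 TPM in N/D and 200.7 and 339.6 TPM in N/D/S, while Rtl1 lies below 1 TPM in each library.

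The H19 and Igf2 locus on chromosome 7 was represented by Igf2, a fetal growth factor expressed from the paternal allele. Igf2 was listed at 0 in N/D replicate 1 and had 7.50 TPM in N/D replicate 2, against 4.91 and 42.6 TPM in N/D/S. The groups overlapped, while within each replicate number the N/D/S library was higher, by 2.56 and 2.36 on the log2(TPM + 1) scale. The log2 fold change was 2.46 (standard error 1.48), and 0.92 without N/D replicate 1. Without N/D replicate 2, which leaves only the N/D library listed at 0, the adjusted limma p was 0.00217, on the assumption that this lone library varies like the N/D/S libraries.

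Igf2 is highly expressed in mesoderm and endoderm, and markers of these tissues were compared. The 12 mesoderm and endoderm markers summed to 0.0825 and 46.5 TPM in N/D and 10.3 and 29.5 TPM in N/D/S, with 9 and 2 of them listed at 0 in N/D and 2 and 4 in N/D/S. The 6 pluripotency markers summed to 0.247 and 185.7 TPM in N/D and 3.60 and 293.1 TPM in N/D/S. Like Igf2, both lists were higher in the replicate 2 libraries than in the replicate 1 libraries. So was the sum of glial markers (0 and 13.03 TPM against 134.4 and 47.2 TPM, replicate 1 first). The neural progenitor sum had this order too (488.6 and 519.0 TPM against 1227 and 711.3 TPM). Of its genes only Fabp7 did (133.6 and 179.1 TPM against 906.5 and 505.6 TPM), while Vim, Hes1 and Pax6 were each higher in both replicate 1 libraries. The part of these lists in the Igf2 level was not tested.

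The Kcnq1 cluster on the same chromosome holds genes expressed from the maternal allele. Cdkn1c, which encodes p57Kip2, an inhibitor of cyclin-dependent kinases made as cells leave the cycle, had 425.2 and 259.1 TPM in N/D and 578.7 and 243.2 TPM in N/D/S. The groups overlapped, and the log2 fold change was 0.18 (standard error 1.03), or −0.04 with upper quartile scaling. Phlda2, which limits placental growth, was listed at 0 and had 1.80 TPM in N/D, and had 0.12 and 5.55 TPM in N/D/S. Ascl2, a factor of the trophoblast, had under 1.3 TPM in each library, from 0 and 0.21 in N/D to 0.64 and 1.20 in N/D/S. Slc22a18, a transporter family member, was listed above 0 only in N/D/S replicate 2, at 0.30 TPM.

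The Snrpn cluster on chromosome 7, the mouse counterpart of the Prader-Willi and Angelman region, was the second most abundant locus after that of Nnat. Its 6 genes summed to 1957 and 3248 TPM in N/D and 2450 and 2090 TPM in N/D/S. These totals overlapped between the lines. Its paternally expressed genes did not behave alike across the libraries, as the following values show.

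Ndn, which encodes necdin, a MAGE protein of postmitotic neurons, had 589.0 and 1783 TPM in N/D and 955.0 and 1252 TPM in N/D/S. Both N/D libraries lay outside the N/D/S range, 1 on each side, and the log2 fold change was 0.09 (standard error 1.05), or −0.12 with upper quartile scaling. Snrpn, which encodes the spliceosomal protein SmN, had 887.1 and 1081 TPM in N/D and 878.7 and 604.1 TPM in N/D/S. It was 1 of the 2 imprinted genes, with Peg10, in which both N/D/S libraries were below both N/D libraries, an order found for 8.23% of all genes tested. In replicate 1 the libraries differed by only −0.014 on the log2 scale, and the log2 fold change was −0.43 (standard error 0.97), or −0.16 without N/D/S replicate 2.

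Snurf is a short reading frame upstream of Snrpn on the same transcript, and in GENCODE it lies within Snrpn on the same strand, so how reads were divided between both symbols is uncertain. Snurf had 440.8 and 154.0 TPM in N/D and 422.1 and 159.4 TPM in N/D/S. The lines were close within each replicate number, while both replicate 1 libraries were far above both replicate 2 libraries. The ratio of Snrpn to Snurf was 2.01 and 2.08 in the replicate 1 libraries, and 7.02 and 3.79 in the replicate 2 libraries, N/D first.

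Magel2 and Mkrn3, the other paternally expressed genes of the cluster, were nearly missing from N/D replicate 1. Magel2, a MAGE protein of endosomal trafficking, had 0.0035 TPM there and 96.9 TPM in N/D replicate 2, against 67.6 and 36.6 TPM in N/D/S. Mkrn3, a RING finger protein known as a brake on puberty, had 0.21 and 46.0 TPM in N/D and 37.8 and 14.9 TPM in N/D/S. For both, N/D replicate 2 was the highest library and N/D replicate 1 the lowest.

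Their log2 fold changes were 2.36 (standard error 2.02) and 1.72 (standard error 1.74), and without N/D replicate 1 they turned to −0.95 and −0.92. Without N/D replicate 2, which leaves N/D replicate 1 as the lone N/D library, they were 5.66 and 4.36. Ube3a, the ubiquitin ligase expressed from the maternal allele in neurons, had 39.6 and 86.7 TPM in N/D and 88.4 and 23.4 TPM in N/D/S. The N/D/S library was the higher in replicate 1 and the lower in replicate 2, with a log2 fold change of −0.35 (standard error 1.12).

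Nnat lies within an intron of Blcap on the opposite strand of chromosome 2, in each of the 3 annotated Blcap transcripts that span it. Blcap, a small protein first described in bladder cancer, was listed at 0 in N/D replicate 1, where Nnat had 11906 TPM. In the other libraries Blcap had 132.3 TPM in N/D and 212.3 and 126.9 TPM in N/D/S. Of the 17 imprinted genes that reached 10 TPM everywhere else, Blcap was the only 1 listed at 0 in N/D replicate 1. Over all genes, 9.99% were.

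Blcap had the largest log2 fold change of the 25 genes, 3.84 (standard error 2.12, unadjusted p = 0.113 by limma), which was 0.31 without N/D replicate 1. Within replicate 2 the N/D/S library differed by −0.060 on the log2 scale. Without N/D replicate 2 the log2 fold change was 7.37, with the library listed at 0 as the lone N/D library. For Nnat itself the log2 fold change was −0.02 (standard error 0.97).

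In the Peg3 cluster, both paternally expressed genes were measured at 8.87 TPM or more in each library. Peg3, a zinc finger protein, had 36.7 and 131.6 TPM in N/D and 147.2 and 28.1 TPM in N/D/S. Usp29, a ubiquitin-specific peptidase that starts from the same region as printed above, had 22.1 and 39.4 TPM in N/D and 35.1 and 8.87 TPM in N/D/S. In both, replicate 2 of N/D and replicate 1 of N/D/S were the highest libraries, and replicate 2 of N/D/S was the lowest. Ube3a had the same pair of highest libraries and the same lowest library, so this is not particular to the cluster.

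The ratio of Peg3 to Usp29 lay between 1.66 and 4.19 in the 4 libraries. The log2 fold changes were −0.11 (standard error 1.24) for Peg3 and −0.69 (standard error 1.10) for Usp29. Zim1, a zinc finger gene expressed from the maternal allele of this cluster, had 0.099 and 0.95 TPM in N/D and 5.88 and 0.25 TPM in N/D/S. Its ratio to Peg3 was highest in N/D/S replicate 1, at 0.040, and between 0.0027 and 0.0087 in the others. Zim1 was above 1 TPM in that library alone and was not tested.

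The remaining loci hold 1 or 2 measured genes each. On chromosome 6, Peg10 and Sgce are transcribed away from each other. Peg10, a retrotransposon-derived gene needed in the placenta, had 14.2 and 15.9 TPM in N/D and 10.9 and 5.12 TPM in N/D/S. The groups did not overlap, and the log2 fold change was −0.91 (standard error 0.99), and it ranged from −1.39 to −0.43 with a library left out, the latter without N/D/S replicate 2. Sgce, the epsilon-sarcoglycan gene, had 49.2 and 91.6 TPM in N/D and 91.5 and 62.9 TPM in N/D/S, and its log2 fold change was 0.17 (standard error 0.99), or −0.03 with upper quartile scaling. The neighbours thus had different orders of the libraries.

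Mest, a hydrolase of mesoderm and brain, had 247.4 and 275.6 TPM in N/D and 294.9 and 67.9 TPM in N/D/S, so that N/D/S replicate 2 alone was low. Its log2 fold change was −0.88 (standard error 1.11). Plagl1, the zinc finger factor Zac1, had 0 and 7.92 TPM in N/D and 12.0 and 0.012 TPM in N/D/S. The lowest library of each line was at or near 0, and the log2 fold change of 0.28 (standard error 1.61) turned to −1.30 without N/D replicate 1. Grb10, an adaptor of insulin and IGF receptors, had 4.69 and 28.7 TPM in N/D and 35.1 and 13.2 TPM in N/D/S. Its log2 fold change of 0.80 (standard error 1.20) likewise turned to −0.40.

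Gnas, which encodes the stimulatory G protein alpha subunit and other products of the same locus, had 1117 and 1355 TPM in N/D and 1223 and 606.8 TPM in N/D/S. Its log2 fold change was −0.51 (standard error 0.99), and −0.0081 without N/D/S replicate 2, and the symbol sums products that are imprinted differently. Impact, an inhibitor of the kinase Gcn2, had 5.50 and 18.1 TPM in N/D and 17.8 and 7.67 TPM in N/D/S, and its log2 fold change was 0.20 (standard error 1.08). Igf2r, which clears Igf2 and sorts lysosomal enzymes, had 11.01 and 3.26 TPM in N/D and 6.48 and 1.66 TPM in N/D/S. Within each replicate number Igf2r was lower in N/D/S, with differences of −0.68 and −0.68 on the log2 scale, although the groups overlapped because the replicate 1 libraries were higher. Without N/D replicate 1, its log2 fold change of −0.68 (standard error 1.11) was 0.07.

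A pair of intronless retrogenes within other genes were measured apart from their hosts. Zrsr1, related to the splicing factor U2af1, lies within Commd1 on the opposite strand and had 8.65 and 19.2 TPM in N/D and 21.5 and 27.6 TPM in N/D/S. The groups did not overlap, and the log2 fold change was 0.86 (standard error 1.00), and 0.33 without N/D replicate 1. Nap1l5, related to nucleosome assembly proteins, lies within an intron of Herc3 and had 147.9 and 374.6 TPM in N/D and 242.1 and 196.3 TPM in N/D/S, with a log2 fold change of −0.11 (standard error 1.02).

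Over all clusters, the direction of the difference between the lines depended on the replicate number. Within replicate 1, N/D/S was above N/D for 20 of the 25 genes tested, as for 72.5% of all genes, and within replicate 2 for 7 of 25, as for 25.2% of all genes. The median difference was 0.88 in replicate 1 and −0.84 in replicate 2 on the log2 scale, against 1.14 and −0.62 for all genes. N/D/S was higher within both replicate numbers for 5 genes (Igf2, Dlk1, Dio3, Phlda2 and Zrsr1) and lower within both for 3 (Snrpn, Peg10 and Igf2r), against 15.9% and 17.9% of all genes. Dio3 is among the 5 only through a filter that its N/D/S libraries passed, as above, and so adds nothing to that count. Phlda2 is among the 5 through 0.12 TPM in replicate 1 of N/D/S against a value listed at 0 in N/D. Its log2 fold change was −0.050 without N/D replicate 1. N/D replicate 1 was the lowest library for 14 of the 25 genes and N/D/S replicate 2 for 9, where over all genes these libraries were lowest for 56.3% and 29.2%.

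**Figure D4:**
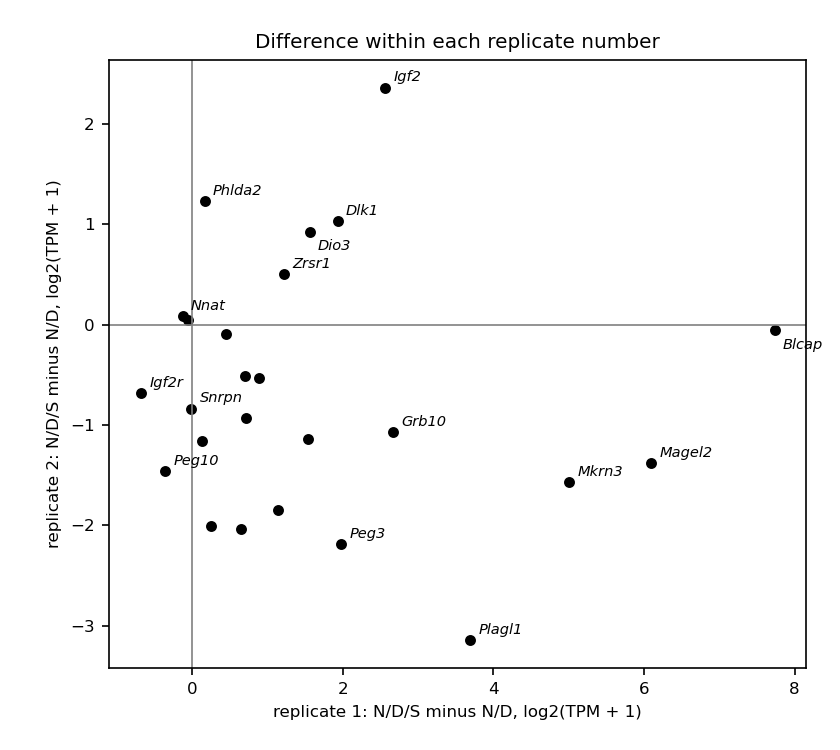
Difference between the N/D/S and the N/D library on the log2(TPM + 1) scale within replicate 1 (horizontal) and replicate 2 (vertical), one point per imprinted gene tested. Only 5 genes lie above 0 on both axes, among them Igf2 at 2.56 and 2.36, and most genes lie to the right of 0 and below it.

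Some imprinted genes ordered the libraries by replicate number. Both replicate 1 libraries were above both replicate 2 libraries for Cdkn1c, Snurf and Igf2r, an order found for 14.8% of all genes tested. Both were below for Igf2, Phlda2, Ndn and Nnat, an order found for 14.7% of all genes. The shares of the imprinted genes, 3 and 4 of 25, are near these. The labels do not say what a replicate number stands for, and same-numbered files list equal numbers of symbols, 35197 for replicate 1 and 35204 for replicate 2. The sums of the pluripotent, mesoderm and endoderm, glial and neural progenitor markers given above had the second of these orders. The neural progenitor sum had it through Fabp7, while Vim, Hes1 and Pax6 of that list had the first order. The part of the markers in these orders was not tested.

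**Figure D5:**
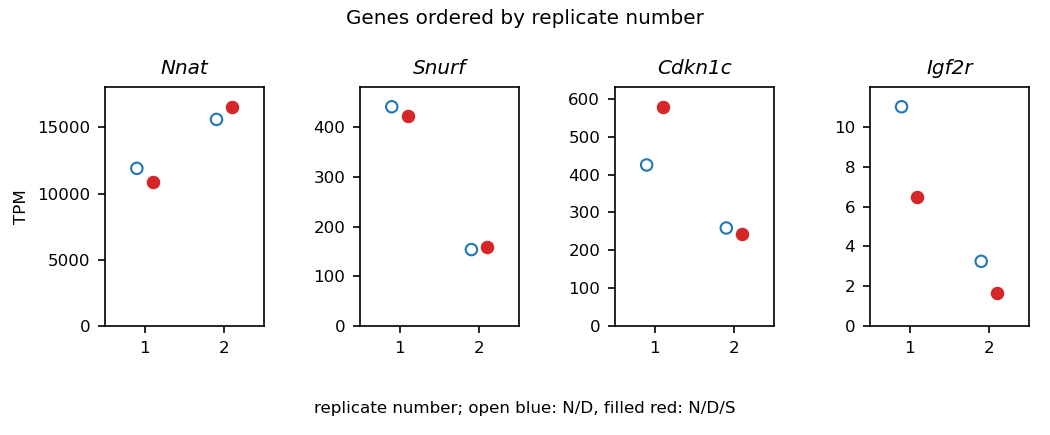
TPM of 4 imprinted genes by replicate number, with open blue circles for N/D and filled red circles for N/D/S, on linear axes from 0. Snurf has 440.8 and 422.1 TPM in replicate 1 against 154.0 and 159.4 TPM in replicate 2, and Nnat 11906 and 10911 against 15596 and 16551 TPM.

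Further imprinted genes were taken from a second list of 38, of which 23 were tested. None of the 23 passed the adjusted threshold in limma (lowest unadjusted p = 0.156 by limma), and their median log2 fold change was 0.36. Both N/D/S libraries were above both N/D libraries for H13, Calcr and Trappc9, and below for Zdbf2 and Mcts2. These 3 and 2 of 23 genes stand beside 8.69% and 8.23% of all genes tested. H13 encodes a signal peptide peptidase, and Mcts2 is a paternally expressed retrogene in an intron of H13 on the same strand.

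H13 had 42.2 and 105.9 TPM in N/D and 190.5 and 205.8 TPM in N/D/S, a log2 fold change of 1.55 (standard error 1.02). Mcts2 had 197.2 and 75.2 TPM in N/D and 68.8 and 58.3 TPM in N/D/S, a log2 fold change of −0.93 (standard error 1.02). Host and retrogene thus stood in opposite orders, and the ratio of Mcts2 to H13 was 4.67 and 0.71 in N/D and 0.36 and 0.28 in N/D/S. The N/D value of 4.67 is from replicate 1, and without that library the log2 fold changes were 0.90 for H13 and −0.24 for Mcts2.

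Calcr, the calcitonin receptor gene near Peg10, was listed at 0 and had 1.64 TPM in N/D, and had 6.39 and 2.68 TPM in N/D/S. Trappc9, a trafficking gene that hosts Peg13, had 12.2 and 27.9 TPM in N/D and 47.2 and 29.6 TPM in N/D/S. Zdbf2, a paternally expressed zinc finger gene, had 136.1 and 111.8 TPM in N/D and 94.3 and 33.1 TPM in N/D/S. Without N/D replicate 1 the log2 fold change went from 1.68 to 0.98 for Calcr, from 0.98 to 0.41 for Trappc9 and from −1.13 to −0.98 for Zdbf2.

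Regulators of imprints were taken from a list of 23, all of them tested. None passed the adjusted threshold in limma (lowest unadjusted p = 0.141 by limma), and their median log2 fold change was 0.02. Uhrf1, which brings the maintenance methyltransferase to replicated DNA, was listed at 0 and had 10.8 TPM in N/D, and had 12.7 and 11.6 TPM in N/D/S. Setdb1, a histone methyltransferase at imprinted and retroviral sequences, had 0.043 and 16.5 TPM in N/D and 27.9 and 17.0 TPM in N/D/S. Ctcf, the insulator protein that binds the H19 control region, had 101.5 and 111.3 TPM in N/D and 98.8 and 38.1 TPM in N/D/S. For Uhrf1 and Setdb1, only N/D replicate 1 lay far from the other libraries, and without it their log2 fold changes were 0.15 and 0.38.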

How the data were processed

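Bulk RNA-seq of sorted tdTomato+ neurons was analysed, with 2 N/D and 2 N/D/S libraries. RNA was poly-A selected. The authors deposited TPM per gene symbol and library, made with kallisto 0.44.0 on a mouse transcriptome index (GRCm38 in the processing notes). How transcripts were combined into symbols, and any scaling between libraries, is not given in the sources used here.

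Files were joined on symbol, leaving out symbols turned into dates. Genes reaching 1 TPM in 2 or more libraries were fitted with limma 3.58.1 in R 4.3.3 on log2(TPM + 1), without covariates, with Benjamini-Hochberg adjustment and a threshold of 0.05. Fold changes on this scale understate changes of low genes. Positions are from GENCODE M21. Figures were made with matplotlib 3.10.9 in Python 3.11.15.

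Nothing in the labels says that same-numbered libraries came from 1 culture, or that replicates came from separate cultures, so p-values measure the spread between these libraries, which may be technical. The sleuth tool named by the authors needs run output that was not used here. The rule for the imprinted genes uses no measured value, but the rule, lists and tests were chosen with earlier results of these data known. Genes named are the measured members, and from the further lists those past the threshold. Added to these are at most 5 with the largest fold change among those whose lines do not overlap. Fabp7, Vim, Hes1 and Pax6 are named for the order of the neural progenitor sum. Alternatives were other pseudocounts, filters and scalings, a replicate block and leaving out each library.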

Additional observations from a re-analysis of the deposited data

How the results depend on the processing

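The 31 results were recomputed to give 313 alternative values. Of these, 269 moved neither in direction nor across the threshold, or only within the set limits. Those limits were wide, and the 269 include medians of the imprinted genes that turned below 0, such as −0.57 without N/D replicate 1. The cause of the changes was not tested. Pseudocounts of 0.1 and 0.5 and both filters on low values turned no direction of a single imprinted gene, although the filter of 1 TPM in every library turned their median from 0.17 to −0.063, and gave 0 genes past the adjusted threshold. A pseudocount of 0.1 moved Igf2 from 2.46 to 4.07, Dio3 from 1.24 to 2.88, Phlda2 from 0.69 to 1.35, Magel2 from 2.36 to 3.97 and Mkrn3 from 1.72 to 2.67. Upper quartile scaling turned Cdkn1c to −0.037, Ndn to −0.12 and Sgce to −0.034. Both N/D/S libraries were below both N/D libraries for 4 imprinted genes with median-of-ratios scaling (9.61% of all genes) and for 6 with upper quartile scaling (9.89% of all genes), against 2 without (8.23%). Same-numbered libraries had a correlation of 0.020 in their deviations from the line means and what the number stands for is not stated, so the numbers were not treated as pairs. The fit with a block for replicate number gave 0 genes past the adjusted threshold and 9 genes with an unadjusted limma p under 0.05, and the median standard error of the imprinted genes went from 1.10 to 1.28.

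Where leaving out a library left 1 in a line, that lone library is assumed to vary like the other line. The number of genes past the adjusted limma threshold then ranged from 0 to 2664 higher and from 0 to 245 lower, the larger numbers only without N/D replicate 2, which leaves N/D replicate 1 as the lone N/D library. The number of imprinted genes with N/D/S above N/D without overlap ranged from 4 to 12 as the share of all genes ranged from 13.1% to 55.1%, and with N/D/S below N/D from 3 to 10 as that share ranged from 13.9% to 32.7%. The median log2 fold change of the imprinted genes ranged from −0.57 to 0.69. Dlk1, Snrpn, Peg10, Gnas and Zrsr1 kept their direction and their side of the threshold in each alternative that gave a value. So did Dio3, which passed the filter only through N/D/S. In all of these genes but Gnas the lines did not overlap, so leaving out a library could not turn the direction. Their sizes did not hold, with ranges of 0.65 to 2.31 for Dlk1, −0.70 to −0.16 for Snrpn, −1.39 to −0.43 for Peg10, −1.02 to −0.0081 for Gnas and 0.33 to 1.39 for Zrsr1 with a library left out. Log2 fold changes of genes that changed direction with a library left out ranged as follows: Phlda2 −0.050 to 1.97, Snurf −0.76 to 0.75, Ndn −0.71 to 0.89, Magel2 −0.95 to 5.66, Mkrn3 −0.92 to 4.36, Sgce −0.27 to 0.62, Plagl1 −1.30 to 2.12, Grb10 −0.40 to 1.99, Impact −0.58 to 0.97, Igf2r −1.43 to 0.067, Peg3 −1.28 to 1.07, Cdkn1c −0.45 to 0.80, Ube3a −1.29 to 0.58, Nnat −0.32 to 0.28, Nap1l5 −0.78 to 0.56, Usp29 −1.63 to 0.24, Mest −1.93 to 0.17. The ratio of Zim1 to Peg3 kept its direction with both pseudocounts. The pairs H19 and Igf2, Meg3 and Dlk1, Cdkn1c and Kcnq1ot1, and Igf2r and Airn gave no ratio, because their noncoding genes were not analysed here. TPM carry no depth, so its limit on the low genes was not assessed.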
